A study of Oryza sativa with 4 samples.

Results

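The comparison described here is that of hd1-3 against wild type under short-day (SD) condition, read from 1 Affymetrix Rice Genome Array for each genotype. The probe sets used are those whose brighter SD signal was 500 or more, after control and reporter probe sets (names starting with AFFX or RPTR) had been left out. They number 13789 of 57194, or 24.1%, stand for 9813 named genes and are called bright here. The wild type was the rice cultivar Zhonghua11, and hd1-3 is a mutant without a working Hd1, whose sequence carries more than 1 deletion or insertion. Leaves came from plants 35 days old that were kept at 28 °C with light for 11.5 h and dark for 12.5 h, and were taken 3 h after light. The same 2 genotypes were also measured under long-day (LD) condition, with light for 15 h, dark for 9 h and leaves taken 5 h after light, again on 1 array each, so the series holds 4 arrays. Day length and the hour after light changed together between the 2 pairs and cannot be told apart. The labels do not say how many plants or which leaf went into a sample.

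Rice flowers earlier when days are short. Hd1, a zinc finger protein that also carries a CCT domain, works in the leaf, where it promotes the florigen gene Hd3a in short days and represses it in long days together with other floral repressors. The florigen Hd3a is a small protein that travels from the leaf to the shoot apex. In the leaf itself, MADS box genes such as OsMADS14 and OsMADS15 are known to respond to florigen. The clock proteins and phytochromes set the time of day at which these genes are expressed.

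Each value below is a deposited linear signal intensity, and a log2 fold compares hd1-3 with wild type after 1 was added to each signal, so positive values are higher in hd1-3. With 1 array per group no difference has a replicate check, no test was possible, and fold sizes are descriptions of these arrays. The arrays had near equal medians, from 63.7 to 69.7, and between 13056 and 13619 probe sets at 500 or more. The ratio of the 3′ to the 5′ control probe set of the glyceraldehyde phosphate dehydrogenase gene was 1.64 in wild type and 4.16 in the mutant under SD and 1.48 and 4.25 under LD, while that of cyclophilin lay between 1.42 and 1.69 and that of actin between 2.92 and 4.46 on the 4 arrays. The part of this control gene's difference in the results was not tested. The probe set of Hd1 itself, which is not bright enough to be used here, read 141.5 in wild type and 60.5 in the mutant under SD and 89.3 and 5.40 under LD, and whether it lies in the changed parts of the gene was not tested. Leaf markers read close to each other in both genotypes: the summed signal of 10 probe sets of RBCS, rca and CAB2R was 327367 in wild type and 341759 in the mutant under SD and 299334 and 296069 under LD, and none of their 9 bright probe sets moved beyond 1.5-fold under SD. Within that limit lay 89.3% of all bright probe sets. Of the shoot meristem markers, OSH1 and OSH6 stayed under 100 on every array, with summed signals of 95.9, 63.0, 124 and 82.9 in the order SD wild type, SD hd1-3, LD wild type and LD hd1-3. The root markers Lsi1 and Lsi2 summed to 733 and 1039 under SD and to 591 and 554 under LD, and the floral organ markers OsMADS1, OsMADS3, OsMADS7 and OsMADS16 to 776 and 873 under SD and to 1184 and 1328 under LD. The part of these markers in the results was not tested. Fewer cells of a type and less RNA per cell cannot be told apart in such samples.

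Most probe sets read alike in both SD arrays, with 9517 of 13789 (69.0%) within 0.32 on the log2 scale and 12309 (89.3%) within 1.5-fold, and the median log2 fold over all of them was -0.0044. Above 2-fold lay 482 probe sets (3.5%), of which 244 (1.77%) were higher and 238 (1.73%) lower in hd1-3. In the same 13789 probe sets, 378 (2.74%) were above 2-fold in the LD pair. Of the 482, 241 were above 2-fold in the same direction under LD, and another 55 (11.4%) were in the same direction at 1.5- to 2-fold. A further 160 (33.2%) were within 1.5-fold under LD, which is the sense of "absent in the LD pair" used here, with 72 higher and 88 lower in hd1-3. The remaining 21 (4.36%) were above 1.5-fold in the opposite direction under LD and 5 (1.04%) had both LD signals under 100, so that no LD fold could be read. The differences absent under LD were smaller than the shared ones. Their median size was 1.22 on the log2 scale, against 2.58 for those shared in the same direction. With signals under 100 raised to 100, which makes each fold a lower bound, 14 of the 160 were above 5-fold and 135 of the 241 were. Of the 160, 90 had a brighter SD signal of 1000 or more and 2 had a fainter SD signal under 100.

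**Figure D1:**
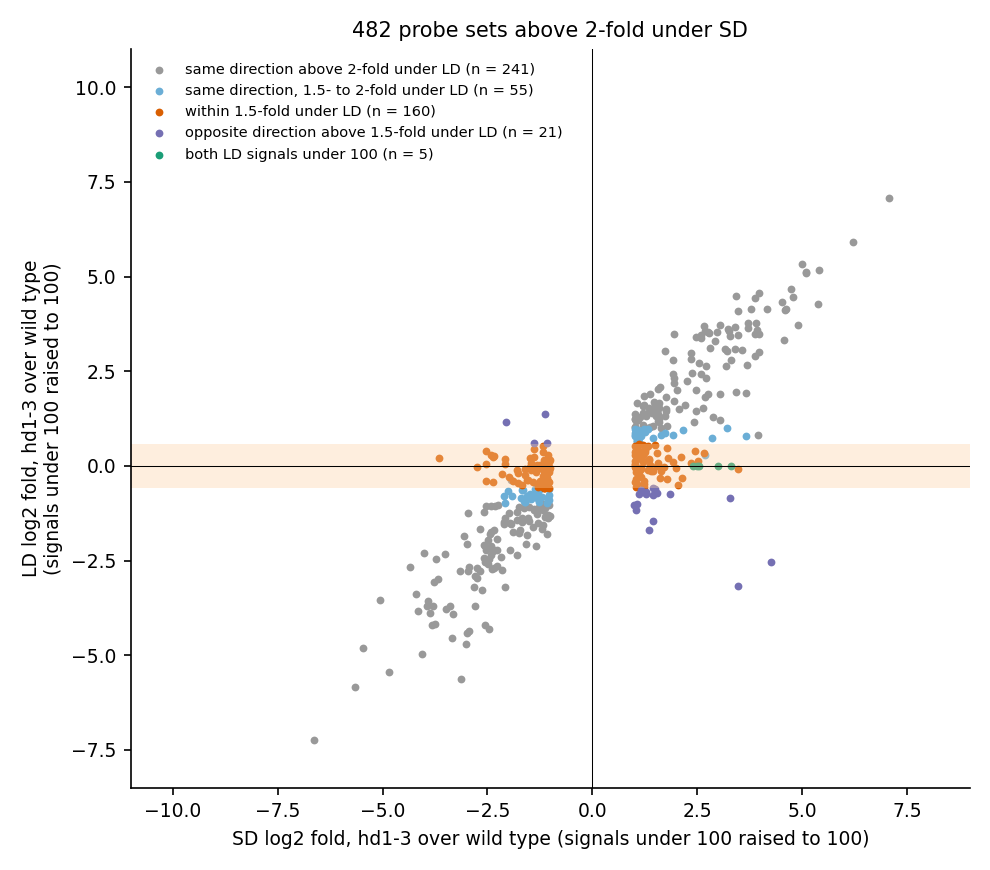
SD log2 fold (horizontal) against LD log2 fold (vertical) of hd1-3 over wild type for the 482 probe sets above 2-fold under SD, 1 point per probe set, with signals under 100 raised to 100. The 241 shared differences run along the diagonal, while the 160 orange points lie in the shaded band within 1.5-fold under LD and the 21 purple points lie in the opposite quadrants.

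The spread of a fold between probe sets was read from 992 genes with more than 1 bright probe set, of which a pair each was compared. The SD log2 folds of a pair differed by up to 0.81 in 95% of genes. The standard deviation of 1 fold, that of the difference divided by the square root of 2, was 0.37, with 0.44 where the dimmer probe set of the pair was between 500 and 1000 and 0.21 above 5000. For the mean of a pair it was 0.26. This is an error between probe sets of the same arrays and does not cover the spread between plants. The SD and LD log2 folds of a probe set differed by up to 0.97 in 95% of probe sets at signals of 500 to 1000, and by up to 0.69 above 5000. The limits fell between probe sets of nearly equal value. LOC4352348 was just inside with 789.6 in wild type and 393 in hd1-3, and LOC4343999 was just outside with 252 and 504. At the limit on signal, LOC4343505 was just inside with a brighter SD signal of 500.1 and LOC4339461 just outside with 499.9.

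Among the genes higher in hd1-3 under SD only, the water channel gene OsTIP2;1 (LOC4330207) had the highest fold. It encodes an aquaporin of the vacuolar membrane. It read 121 in wild type and 1345 in the mutant under SD, but 106 and 98.6 under LD. Only the SD array of hd1-3 was high, with a log2 fold of 3.46 under SD and -0.11 under LD. A further OsTIP2;1 probe set, too dim to be counted, read 71.0 and 373 under SD and 41.9 and 40.7 under LD, the same pattern. In the aquaporin family, 20 of 22 bright probe sets of 18 genes lay within 2-fold under SD and 1 each was above it higher and lower (1.77% and 1.73% of all), and the family median was 0.12 on the log2 scale. The family was chosen after its values were seen.

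The glyoxylate cycle genes ICL and MS and the chlorophyll breakdown genes RCCR1 and SGR (2 families chosen after their values were seen) were also higher under SD only. Isocitrate lyase and malate synthase are the enzymes that set the glyoxylate cycle apart from the citrate cycle, and let a plant build sugars from the acetate of fatty acids. The isocitrate lyase gene ICL (LOC4343441) read 756 in wild type and 3304 in the mutant under SD and 692 and 555 under LD, with log2 folds of 2.13 and -0.32. The malate synthase gene MS (LOC9268154) read 498 and 1711 under SD and 452 and 622 under LD, with log2 folds of 1.78 and 0.46. For both enzymes the SD array of hd1-3 stood above the other 3 arrays, which lay close together. RCCR1 (LOC4348519), whose product reduces the red catabolite formed from chlorophyll, read 2002 and 6257 under SD and 2404 and 2277 under LD, again with 1 array above the rest.

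SGR (LOC4347672), the stay-green gene whose product acts early in chlorophyll breakdown, was higher by less and in 2 probe sets. They read 2650 and 1104 in wild type and 5371 and 2348 in the mutant under SD. Their LD log2 folds were 0.36 and 0.32, so a weaker difference in the same direction was also seen there. The chlorophyll b reductase genes lay within 2-fold under SD, with log2 folds of 0.59 for NOL and -0.02 for NYC1. Of the 5 bright probe sets of these 4 chlorophyll breakdown genes, 3 were above 2-fold higher and 0 lower, with a median of 1.02, beside 1.77% and 1.73% of all bright probe sets. SGR accounts for 2 of the 3, and the family was chosen after its values were seen. A chloroplast Clp protease gene, CLPD1 (LOC4329520, annotated as ERD1), read 985 and 2130 under SD and 3111 and 2784 under LD. Here the SD array of wild type was the low one of the 4.

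Of the 280 annotated probe sets above 2-fold, 3 with a gibberellin, abscisic acid or cytokinin annotation were higher under SD only, 1 was higher in both day lengths, and 0 had an auxin annotation. For comparison, 72 (14.9%) of all 482 probe sets above 2-fold were higher under SD only. That share is over all 482 and not over the annotated 280. Annotations were held for 280 of these 482 but for only 455 of 13789 bright probe sets, so they were more common where the genotypes differed. These counts do not describe hormone genes as a whole. LOGL9 (LOC4347769) belongs to the LOG family, whose enzymes release active cytokinin from its nucleotide. It read 287 in wild type and 1659 in the mutant under SD and 502 and 552 under LD, a log2 fold of 2.53 under SD, while the other 5 bright LOG genes had SD log2 folds between -0.16 and 0.31. A cytokinin dehydrogenase gene (LOC_Os05g31040), for an enzyme that degrades cytokinin, read 366 and 1002 under SD and 1116 and 1008 under LD. For this gene it was the SD array of wild type that lay below the other 3. A cytokinin O-glucosyltransferase gene (LOC4330775) read 306 and 711 under SD, and a gibberellin 2-beta-dioxygenase gene (LOC4325145), for an enzyme that inactivates gibberellin, 909 and 2057. Their LD log2 folds were 0.27 and 0.36. PSK5 (LOC4351500), a precursor of the growth peptide phytosulfokine, read 1963 and 4912 under SD and 2982 and 4324 under LD, the latter being close to 1.5-fold.

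MT1B (LOC4332487), a metallothionein, which binds metal ions through its cysteines, read 877 and 3489 under SD and 423 and 405 under LD. MT4C (LOC4352582), of the same family, had the larger SD log2 fold of 3.65, from 263 to 3314, and read 137 and 235 under LD, so its LD difference was between 1.5- and 2-fold in the same direction. Of 14 bright metallothionein probe sets of 7 genes, 2 were above 2-fold higher and 1 lower under SD, beside 1.77% and 1.73% of all bright probe sets, and the family was chosen after its values were seen. The lower one was a probe set of MT2B that was also lower under LD, from 24297 to 9291, and the other probe sets of MT2B disagreed with it, with SD log2 folds of 0.28 and 0.31.

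Transcription factors higher under SD only included both genes annotated as NAC (no apical meristem) proteins among the 280 annotated probe sets above 2-fold. LOC9266867 (LOC_Os07g48450) read 1332 in wild type and 4326 in the mutant under SD and 1946 and 1899 under LD. LOC4332717 (LOC_Os03g21060) read 1951 and 5145 under SD and 2044 and 1878 under LD. In both the SD array of hd1-3 alone was high. Both helix-loop-helix genes among these probe sets, LOC4330462 and LOC4330291, were in the same class with SD log2 folds of 1.02 and 1.07. The key words for both families were chosen after the values were seen. Earlier key words for NAC factors had matched 0 of the annotated probe sets above 2-fold, and those for basic helix-loop-helix factors 1. The 1 MYB match was lower under SD only, and the 1 ERF match was higher under SD with the opposite direction under LD. Of all 482 probe sets above 2-fold, 72 (14.9%) were higher under SD only. Annotations were held for 280 of these 482 but for only 455 of 13789 bright probe sets, so nothing is shown here about either family as a whole.

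Further genes of this class follow. The peroxidase gene LOC4347963 read 74.0 in wild type and 549.7 in the mutant under SD and 422 and 550.1 under LD, so the SD array of wild type stood below the rest. With signals under 100 raised to 100 its SD fold was at least 5.50. An alpha-galactosidase gene (LOC4348984) read 252 and 949.5 under SD and was near the floor under LD, at 106 and 114. A gene annotated as a SAM dependent carboxyl methyltransferase (LOC4340632) read 1162 and 4068 under SD and had an LD log2 fold of 0.22.

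A flavonol synthase or flavanone 3-hydroxylase gene (LOC4349363), of flavonoid synthesis, was higher in both of its bright probe sets, from 316 to 1089 and from 284 to 821 under SD, with LD log2 folds of -0.34 and -0.01. GER4 (LOC4327911), a germin-like protein gene, and BURP2 (LOC4338119), named for its BURP domain, were dimmer in both LD arrays than in either SD array. GER4 read 337 and 879 under SD and was near the floor under LD, at 89.0 and 102. BURP2 read 613 and 1362 under SD and 179 and 173 under LD. Its other bright probe set was lower in hd1-3 under LD, at 166 and 101, and read 298 and 562 under SD, so that the 2 probe sets disagree under LD. The 2 remaining genes by fold were LOC_Os01g45640, annotated with a tat pathway signal sequence, with an SD log2 fold of 2.13, and LOC_Os09g26460, annotated as a protein binding protein, with 2.03. The latter was much brighter in both LD arrays, at 1686 and 1197, than in the SD arrays, at 168 and 689.

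Among the genes lower in hd1-3 under SD only, the jacalin gene stood near the top in both of its probe sets. LOC4351887, for a jacalin-like lectin, a protein that binds sugars, was lower in both of its probe sets. They read 7223 and 13856 in wild type and 1079 and 2387 in the mutant under SD, and between 26443 and 33380 on the LD arrays. The LD log2 folds were -0.03 and 0.05. The terpene synthase gene LOC_Os08g07080 read 7004 and 1645 under SD and 11587 and 13039 under LD. In both genes the SD array of hd1-3 was the lowest of the 4 and the LD arrays were the brightest.

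CPS2 (LOC9266189), a copalyl diphosphate synthase of phytoalexin synthesis in rice, read 506 in wild type and 181 in the mutant under SD and 329.8 and 381 under LD. The other diterpene cyclase genes were too dim to be counted, among them KSL5 with 342 and 118 and CPS1 with 306 and 155 under SD. Of the 8 probe sets of 7 such genes only 1 was bright, and the values of the rest are not given here, so no direction of the family is shown. The family was chosen after its values were seen. The chloroplast lipoxygenase 2.1 gene (LOC4352505), whose enzyme oxidises polyunsaturated fatty acids, was lower in both probe sets, from 8796 to 4207 and from 4462 to 1898, and read 27883 and 27831 and 20703 and 20101 under LD. BBTI13 (LOC4334617), a Bowman-Birk type trypsin inhibitor, read 3757 and 1175 under SD and 1086 and 759 under LD. A transferase family gene (LOC4352177) read 4687 and 811 under SD and 9931 and 12927 under LD, the SD array of hd1-3 again being lowest.

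Of the 280 annotated probe sets above 2-fold, 1 matched the key words for nitrogen assimilation and was lower under SD only. The key words for chlorophyll-binding and photosystem proteins matched 0 of them. They did not count the early light-induced protein gene given below. Beside these counts, 88 (18.3%) of all 482 probe sets above 2-fold were lower under SD only, a share not limited to the annotated 280. Annotations were held for only 455 of 13789 bright probe sets. How many of those 455 match either set of key words is not given here. The counts therefore show nothing about nitrogen or photosystem genes as a whole. The ferredoxin-nitrite reductase gene LOC4326014, whose enzyme reduces nitrite to ammonium in the chloroplast, read 21342 in wild type and 9013 in the mutant under SD and 9952 and 10043 under LD. Its SD array of wild type was high and the other 3 lay close together. The early light-induced protein gene LOC4342551, for a thylakoid protein that binds chlorophyll under strong light, read 16965 and 6526 under SD and only 824 and 1121 under LD. An aspartokinase gene (LOC4334794), for the entry step to the amino acids made from aspartate, read 2069 and 601 under SD and 709 and 661 under LD. A phosphoenolpyruvate carboxylase gene (LOC4325531) read 2385 and 1106 under SD and 1020 and 1144 under LD. As with nitrite reductase, the SD array of wild type was the high one in both.

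Ferritin, the iron storage protein of the chloroplast, was lower in probe sets of LOC9269178 and LOC_Os11g01530, from 20194 to 9084 and from 24157 to 10679 under SD. The LD log2 folds were -0.57 and -0.39, in the same direction and near the limit of 1.5-fold for LOC9269178, and the 2 names may read near-identical transcripts. A MYB family gene (LOC4334216) read 5423 and 2320 under SD and 1721 and 1709 under LD. A chloride channel gene (LOC4352132) read 2248 and 434 under SD and was near the floor under LD, at 83.1 and 119. RALFL37 (LOC_Os04g31410), a peptide of the RALF family, which alkalinises the cell wall, read 558 and 140.4 under SD and 785 and 641 under LD. Of the further genes in the top 12 by fold, LOC4346960 (annotated as pyruvate kinase-like), LOC4350557 (with no annotation here) and LOC9269584 had SD log2 folds of -2.54, -2.32 and -2.07. The other bright probe set of LOC9269584 was lower under LD as well, from 2780 to 1173.

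**Figure D2:**
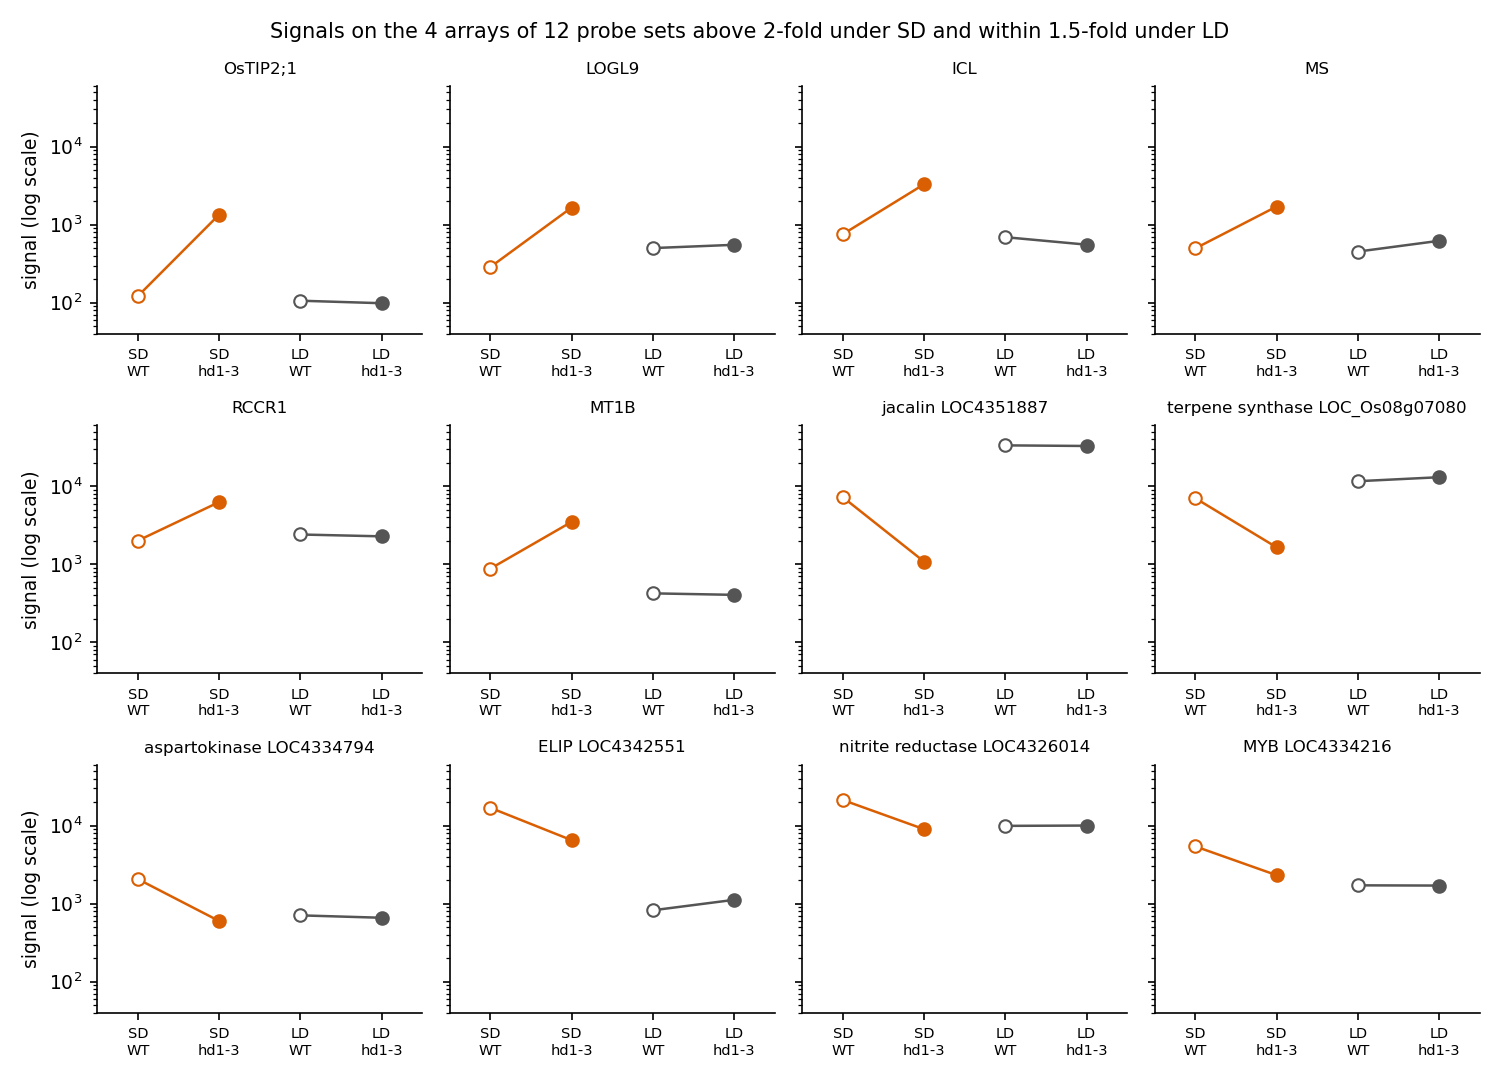
Signals on the 4 arrays (log scale) of 12 probe sets that were above 2-fold under SD and within 1.5-fold under LD, with open points for wild type, filled points for hd1-3, orange for SD and grey for LD. ICL, MS and RCCR1 are high in the SD array of hd1-3 alone, nitrite reductase is high in the SD array of wild type alone, and jacalin is lowest in the SD array of hd1-3 with both LD arrays above both SD arrays.

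Probe sets of the same gene did not always tell the same story. Of the 108 named genes of the platform table in the class absent under LD, 33 had another bright probe set. In 16 of these genes all other bright probe sets were above 1.5-fold in the same direction under SD, as for the jacalin, lipoxygenase, SGR and flavonol synthase genes, and in 17 they were not. This agreement was scored under SD alone and does not show that a gene's LD difference was absent. Among the 16, another probe set was above 1.5-fold under LD in LOC4324372, LOC9269584, LOC4334657, BURP2 (LOC4338119) and LOC4326517. Its LD log2 folds were -1.80, -1.24, -0.82, -0.71 and 0.59. The lowest fold of the class was that of a probe set of the plasma membrane aquaporin gene OsPIP2;2 (LOC4330049), with 4974 in wild type and 394 in the mutant under SD and 1294 and 1485 under LD. A far brighter OsPIP2;2 probe set read 36486 and 37484 under SD, so the gene's direction is uncertain. SAMDC (LOC4336294), for an enzyme of polyamine synthesis, had 1 probe set at 788 and 214 and another at 22339 and 18581 under SD. OsDOS (LOC4327304), a CCCH zinc finger gene, was the 1 gene of this class with probe sets above 1.5-fold in opposite directions, with SD log2 folds of -1.17 and 3.47.

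Where a difference was absent under LD, the LD level could lie anywhere relative to the SD pair. Of the 72 probe sets higher in hd1-3, the mean log2 LD signal lay between the 2 SD signals in 39, above both in 18 and below both in 15. Of the 88 lower in hd1-3, it lay between them in 52, above both in 23 and below both in 13. The SD array of hd1-3 was the farther of the 2 from the LD mean in 54 of these 88 and in 30 of the 72, and the SD array of wild type in 34 and 42. The reverse choice gave a similar picture: of 14332 probe sets bright in the LD pair, 448 were above 2-fold under LD, and 113 of these were within 1.5-fold under SD.

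The 21 probe sets that changed sides between the day lengths were headed by a pair of neighbouring genes. NAS1 (LOC4332608) and NAS2 (LOC4332607) encode nicotianamine synthases, which make the metal chelator nicotianamine, the precursor of the phytosiderophores that grasses use to take up iron. They lie next to each other in the RefSeq gene order. NAS1 read 149 in wild type and 2839 in the mutant under SD but 959 and 166 under LD, with log2 folds of 4.24 and -2.53. NAS2 read 181 and 2009 under SD and 1144 and 127 under LD, with log2 folds of 3.47 and -3.16. Both genes were high in hd1-3 under SD and in wild type under LD and low on the other 2 arrays. Whether each of these 2 probe sets reads its own gene alone was not tested.

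The related genes of iron uptake did not all follow. NAS3 (LOC4344361) read 3383 and 2955 under SD and 1309 and 1184 under LD. NAAT1 (LOC9267778), the aminotransferase that acts on nicotianamine, was within 1.5-fold under SD, at 1508 and 1743, and lower in hd1-3 under LD, at 2606 and 1157. YSL15 (LOC9268232), a transporter of iron bound to phytosiderophore, was too dim to be counted, at 45.3 and 168 under SD and 65.1 and 71.8 under LD. The iron transporter genes IRT1 and IRT2 were likewise too dim, with IRT1 at 197 and 177 under SD. Of the 8 bright genes of this family, 2 were above 2-fold higher and 0 lower under SD, beside 1.77% and 1.73% of all bright probe sets. These 2 are NAS1 and NAS2, after which the family was chosen, and the median log2 fold was 0.22 under SD and -0.69 under LD.

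HAK1 (LOC4335729), a high-affinity potassium transporter gene, changed sides in both of its probe sets. They read 304 and 766 in wild type and 857 and 2087 in the mutant under SD, and 1039 and 3080 in wild type and 686 and 1801 in hd1-3 under LD. The other 16 bright HAK probe sets lay within 2-fold under SD. LOC4345410, for a pathogenesis-related protein of the Bet v I family, also did so in 2 probe sets, with SD log2 folds of 1.11 and 1.54 and LD log2 folds of -0.75 and -0.70. LOC4339688, annotated only as an expressed protein, read 394 and 3818 under SD and 1244 and 692 under LD.

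The glutathione S-transferase gene LOC4349188 read 373 in wild type and 955 in the mutant under SD and 828 and 255 under LD, and the peroxidase gene LOC_Os07g48020 read 1435 and 3935 under SD and 9290 and 3414 under LD. AARE2 (LOC4348628), an acylamino acid-releasing enzyme, had SD and LD log2 folds of 1.85 and -0.73. Its other bright probe set did not follow, with -0.11 and 0.22, so the gene's direction is uncertain. Of the 4 probe sets lower in hd1-3 under SD in this class, OsRR9 (LOC4349747, named OsRR10 in the annotation, so the signal may be that of either gene) encodes a type-A response regulator, a protein induced by cytokinin that dampens its signal. It read 1003 and 385 under SD and 2353 and 3589 under LD. RR6 (LOC4337372), another regulator of this type, had the same signs below the 2-fold limit, with 1089 and 618 under SD and 1846 and 2973 under LD. The other 6 bright response regulator genes had SD log2 folds between -0.30 and 0.46. LOC9271668, with no annotation here, read 3180 and 761 under SD and 668 and 1494 under LD, and LOC_Os01g16130, annotated as a retrotransposon protein, had log2 folds of -1.13 and 1.37.

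**Figure D3:**
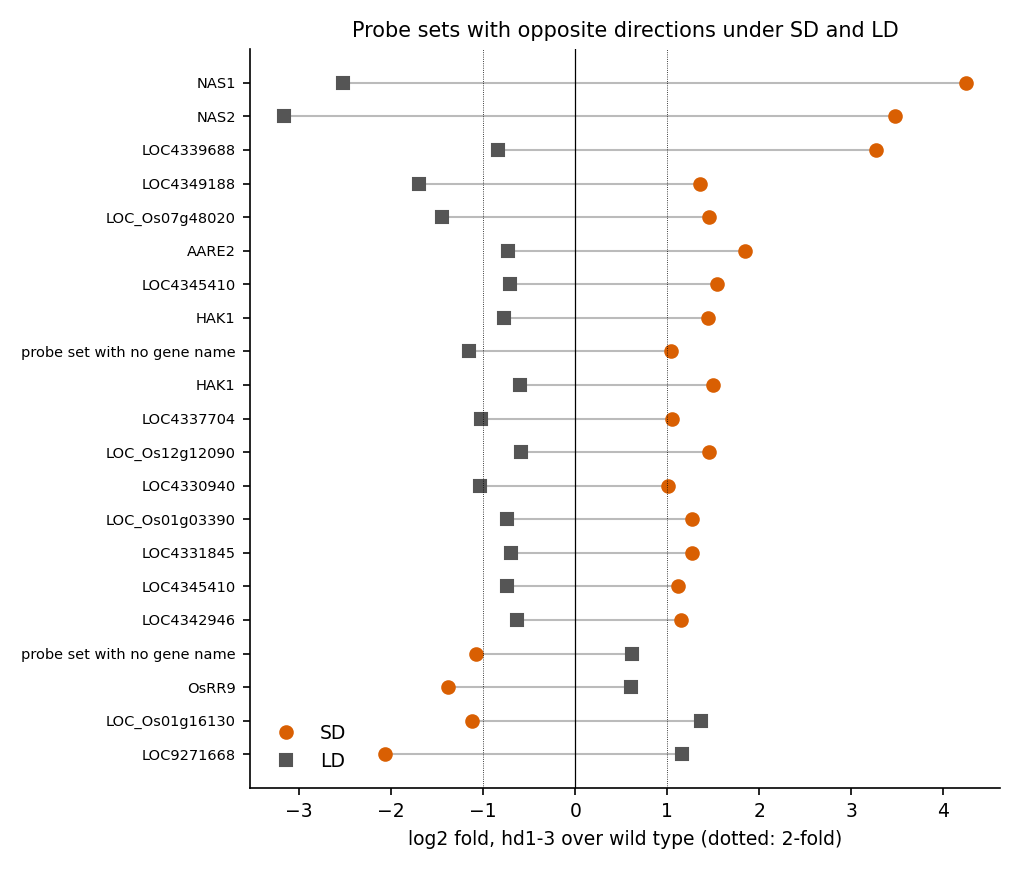
Log2 folds of hd1-3 over wild type under SD (orange circles) and LD (grey squares) for the 21 probe sets above 2-fold under SD and above 1.5-fold in the opposite direction under LD, 1 row per probe set. The rows of NAS1 and NAS2 span 6.77 and 6.63 on the log2 scale, more than the others, and 17 of the 21 are higher in hd1-3 under SD.

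The 5 probe sets with both LD signals under 100 were all higher in hd1-3 under SD. LTPL114 (LOC4331301), of the lipid transfer protein family, read 99.2 in wild type and 799 in the mutant under SD and 77.6 and 97.0 under LD. LOC4347027 read 50.6 and 983 under SD, LOC4330226 read 53.8 and 585, and LOC4349200 read 7.70 and 525. With the floor of 100 their SD folds were at least 9.83, 5.85 and 5.25. Only the SD array of hd1-3 was bright for these genes.

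Of the flowering genes, those above 2-fold under SD were also above 2-fold in the same direction under LD. Hd3a (LOC4340185) read 295 in wild type and 1116 in the mutant under SD and 4.70 and 700.4 under LD. The SD log2 fold was 1.92, and with the floor of 100 the LD fold was at least 7.0. Whether this probe set reads Hd3a alone was not tested. Its higher SD signal in hd1-3 ran opposite to the promotion of Hd3a by Hd1 in short days described above, and the reason was not tested. OsMADS14 (LOC4334140) was higher in both bright probe sets, from 126 to 700.2 and from 205 to 618 under SD, with LD log2 folds of 1.82 and 1.23. The SD array of hd1-3 was the brightest of the 4 for both genes.

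The other 7 bright probe sets of flowering genes lay within 2-fold under SD. OsMADS50 (LOC4331445), a floral promoter, read 2059 in wild type and 1241 in the mutant under SD and 1408 and 1237 under LD. OsMADS56 (LOC4349237), which is close to it in sequence and delays flowering in long days, read 2037 and 1366 under SD, and OsMADS18 (LOC4343851) read 3115 and 4370. Their log2 folds were -0.58 and 0.49 under SD and -0.76 and 0.92 under LD. DTH7 (LOC4344399), the pseudo-response regulator that represses flowering in long days, read 1483 and 1043 under SD and 4266 and 4147 under LD. Ehd3, Ehd4 and Hd16 were within 1.5-fold under SD, with log2 folds of 0.35, -0.13 and 0.26. OsMADS15 was under 100 on all 4 arrays in each of its 4 probe sets, and DTH8 read 99.7 and 83.1 under SD. OsMADS1, a floral organ gene that was too dim to be counted, read 71.7 and 296 under SD and 21.9 and 237 under LD.

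The clock and light input genes differed little between the genotypes. None of their 10 bright probe sets was above 1.5-fold under SD, and the median log2 fold was -0.20. Of all bright probe sets, 89.3% lay within 1.5-fold. GI (LOC4325329) read 2598 in wild type and 2536 in the mutant under SD, LHY (LOC4344703) read 32944 and 29613, and SE5, the heme oxygenase of phytochrome synthesis, read 16319 and 14428. The phytochrome genes PHYA, PhyB and phyC had SD log2 folds between -0.31 and 0.13, and PRR95, a clock pseudo-response regulator, had -0.22. The widest were the 2 probe sets of PRR73, of the same family, at -0.43 and -0.40 under SD and -0.08 and 0.03 under LD. GI was brighter in both LD arrays, at 8678 and 8370, so the genotypes matched within a day length while the day lengths, taken at different hours after light, did not.

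In some large families few or no probe sets were above 2-fold, beside 3.5% of all bright probe sets. In lists of this size a count of 0 is near that share. None of 18 bright heat shock protein probe sets and none of 32 bright probe sets of named ribosomal protein genes was above 2-fold under SD, and their median log2 folds were 0.0028 and -0.04. The small heat shock genes HSP17.9B (LOC4325695) and HSP18.6 (LOC4330933) went apart, from 6572 to 10374 and from 8607 to 5684 under SD. Of the ribosomal protein genes, rps14 (LOC4344541) and RPL18 (LOC4334651) were the widest, with SD log2 folds of -0.64 and 0.55. By annotation in place of gene name, 2 further probe sets for ribosomal proteins were above 2-fold. LOC4343946 (LOC_Os07g33860, annotated as 60S ribosomal protein L44 but DAHPS2 among the RefSeq synonyms, so that its gene is uncertain) read 4528 and 12122 under SD and 5251 and 13924 under LD, and LOC4340741 (LOC_Os06g16290, ribosomal protein L7Ae) read 710.1 and 349.5 under SD and 921 and 543 under LD. The 11 bright cellulose synthase probe sets, of 8 genes, were all higher in hd1-3, with SD log2 folds from 0.21 to 0.72 and a median of 0.45. Their median was 0.48 under LD, so the small shift was present in both day lengths. CESA6 (LOC4342850), of the primary cell wall, read 1666 and 2737 under SD, and CESA7 (LOC4348853), of the secondary wall, read 2925 and 4397.

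**Figure D4:**
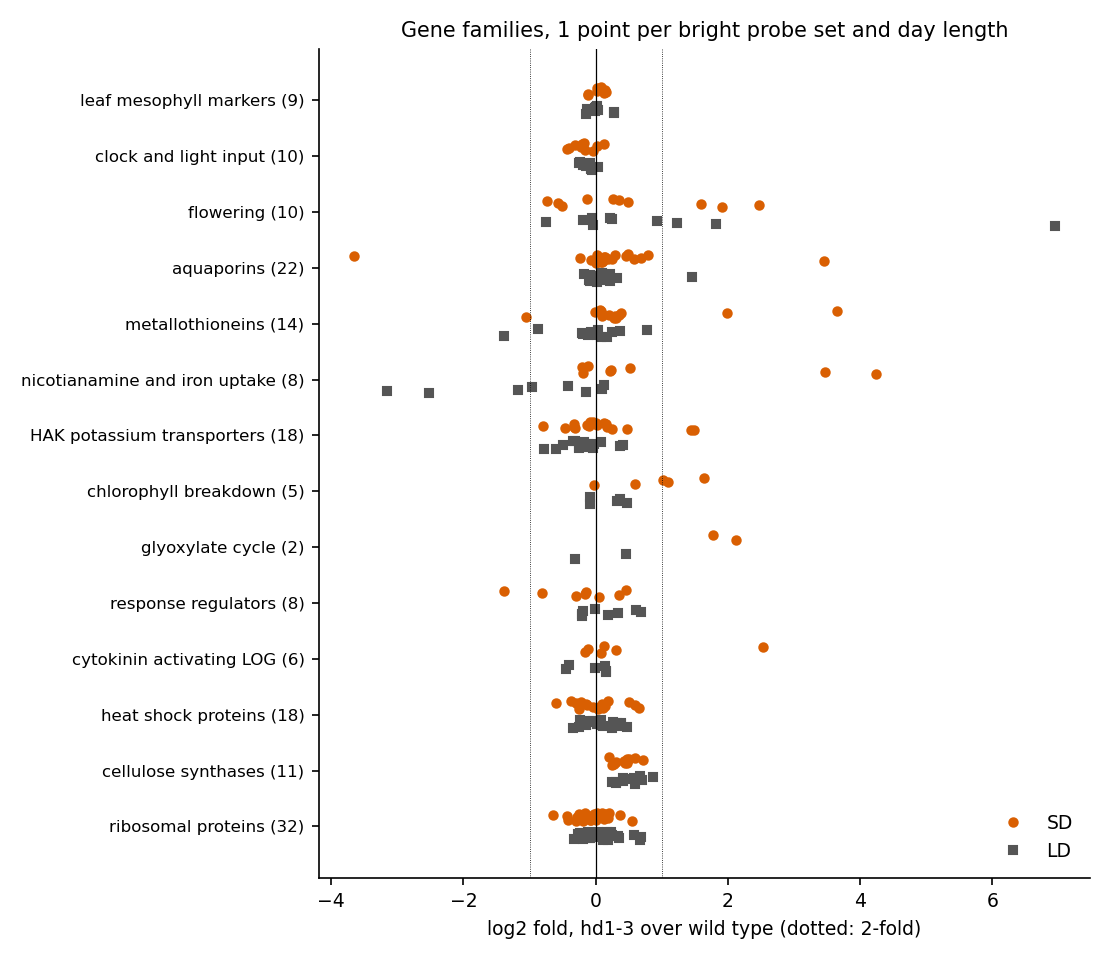
Log2 folds of hd1-3 over wild type for the bright probe sets of 14 gene families (number of probe sets in parentheses), with SD as orange circles, LD as grey squares and dotted lines at 2-fold. Leaf, clock, heat shock and named ribosomal genes stay within 2-fold under SD, above which lie 3.5% of all bright probe sets. The aquaporin, nicotianamine, glyoxylate and LOG families hold probe sets above 2-fold under SD that LD does not match. These families were chosen after their values were seen, so that they hold such probe sets was fixed by the choice.

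The differences shared with LD were led by genes with a far lower signal in 1 genotype. LOC_Os02g40240, for a receptor kinase, read 9925 in wild type and 84.5 in the mutant under SD and 19069 and 126 under LD. RALFL29 (LOC_Os10g42020) read 54.1 and 13444 under SD and 159 and 21282 under LD. With the floor of 100 their SD folds were at least 99.3 and 134. The other 5 highest shared genes, LOC4346832, OsC3H40 (LOC4340263), LOC4341223, LOC4340879 and LOC4350802, had SD folds of at least 24.7 to 74.7, and the other 5 lowest, LOC4341377, LOC4341379, LOC4347323, LOC4340994 and LOC9269151, were lower by more than 5-fold in the same way.

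Chromosomes 6 and 11 held a larger share of the shared differences than of those seen under SD only. Chromosomes were known for 10983 bright probe sets, of which 870 (7.92%) lay on chromosome 6, where Hd1 lies, and 450 (4.10%) on chromosome 11. Of 134 shared differences with a chromosome, 31 (23.1%) lay on chromosome 6 and 19 (14.2%) on chromosome 11. Of 115 differences absent under LD, 6 (5.22%) and 5 (4.35%) did. Chromosomes 7 and 10 held 14 (12.2%) and 12 (10.4%) of the latter, against 7.52% and 4.94% of all bright probe sets with a chromosome. Among the 119 shared genes placed in the RefSeq gene order, 16 had another shared gene within 5 genes, and among the 104 genes absent under LD, 8 had such a neighbour. These are counts with no test. The count of neighbours was not made for the other bright genes, so it does not show whether the genes of either class cluster.

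**Figure D5:**
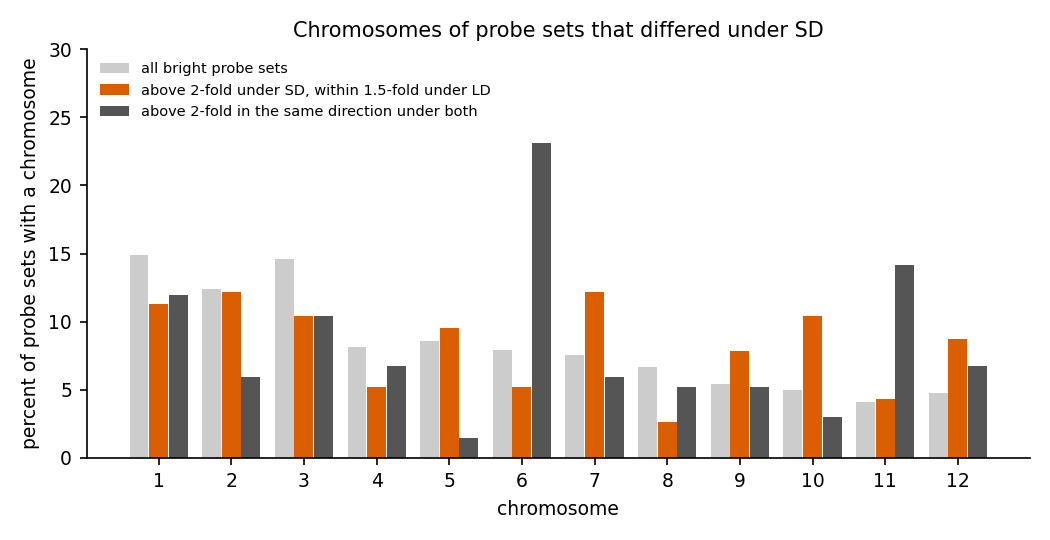
Percent of bright probe sets on each chromosome for all 10983 probe sets with a chromosome (light grey), the 115 above 2-fold under SD and within 1.5-fold under LD (orange) and the 134 above 2-fold in the same direction under both (dark grey). The dark bars reach 23.1% on chromosome 6 and 14.2% on chromosome 11, where the orange bars are at 5.22% and 4.35%.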

How the data were processed

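Leaf RNA of wild type and hd1-3 was labelled with biotin and hybridised by the authors to the rice array of Affymetrix, 1 array for each group. The deposited value of a probe set is its signal intensity on a linear scale, made with MAS 5.0. The mean after 2% was trimmed from each end was 500.1 on all 4 arrays. No detection calls were used and no normalization was added.

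Of 57381 probe sets with a deposited value, 187 for controls and reporters were dropped, and probe sets with the brighter SD signal at 500 or more were kept. Their log2 folds were sorted by their LD values into the classes given above. A fold of a signal under 100 is also given with signals under 100 raised to 100, a floor chosen here. The number of arrays, 1 per group, limits the precision and allows no test. The sorting code was checked on simulated signals and recovered the class of 200 of 200 changed probe sets. Python 3.11.15, pandas 2.3.3 and numpy 2.4.6 were used.

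Names came from the platform table (10984 bright probe sets with 1 gene, 59 with several, 2746 with none), from RefSeq synonyms (assembly ASM3414082v1, used for names, chromosomes and gene order only) and, for 455 bright probe sets, from the locus and annotation of the study's supplementary table, held only in part. Genes named by rule are the 12 highest and 12 lowest of the class absent under LD, the 6 highest and 6 lowest shared, up to 6 on each side of the opposite class by SD minus LD fold, all bright flowering, clock and leaf marker genes, and the 2 widest of the heat shock, cellulose synthase and ribosomal lists. All other genes and the families of aquaporins, metallothioneins, nicotianamine and iron uptake, HAK transporters, chlorophyll breakdown, glyoxylate cycle, response regulators, LOG enzymes and diterpene cyclases were chosen after their values were seen. The annotation key words for NAC and helix-loop-helix genes were also chosen after the values were seen. Lists were matched by gene name, so 12 of 20 flowering, 10 of 14 clock, 3 of 6 leaf, 2 of 3 meristem, 4 of 4 floral organ and 2 of 2 root genes were found. The members and lists were chosen with earlier results of these data known.

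The results were recomputed with 32 added before log2, with quantile normalization, with scaling to the median of bright probe sets, with other limits on signal and fold, the floor of 100 throughout, 1 probe set per gene and only probe sets without the suffixes x, s and a.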

Additional observations from a re-analysis of the deposited data

Results flagged for a closer look

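9 probe sets were above 2-fold in opposite directions in the SD and the LD pair. Each group is 1 array, so the difference between the day lengths was not tested, and the hour after light changed with the day length. As the log2 fold under SD minus that under LD, the values were 6.77 for NAS1 (LOC4332608), 6.63 for NAS2 (LOC4332607), 3.05 for the glutathione S-transferase gene LOC4349188 and 2.90 for the peroxidase gene LOC_Os07g48020. They were 2.20 for a probe set with no gene name, 2.08 for LOC4337704, annotated as a receptor-like kinase of the DUF26 type, and 2.04 for LOC4330940, annotated as a saccharopine dehydrogenase. On the other side, lower in hd1-3 under SD and higher under LD, were LOC9271668 with -3.22 and LOC_Os01g16130 with -2.50. LOC4330940 was just past the limit, with 380.1 in wild type and 764 in the mutant under SD.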

How the results depend on the processing

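The count of probe sets above 2-fold under SD (482) and of those absent under LD (160) depended on which probe sets were admitted. With the limit on the brighter SD signal at 250 they were 868 and 327, at 1000 they were 284 and 90, and with no limit 16567 and 1024, most of them dim. With 1 probe set per named gene they were 254 and 91, and at 3-fold 247 and 37. Without probe sets of the suffixes x, s and a, 105 were absent under LD, and 92 were within 0.32 on the log2 scale under LD in place of 1.5-fold. Both counts stayed within 1.5 times under 32 added, quantile normalization, scaling by bright probe sets and the floor of 100 (445 to 487 and 144 to 168), and the count absent under LD did so when "absent" meant within 2-fold (227) or needed an LD signal of 500 (130). Leaving out genes whose other bright probe sets did not follow, chosen after seeing the data, left 143. Of 180 recomputed folds of named probe sets, 158 moved by less than 0.26 on the log2 scale (the spread of the mean of a pair of probe sets), 22 moved by more and 0 reversed. Adding 32 or raising signals to the floor of 100 cannot reverse a fold, so the 0 says little about direction. Of 85 recomputed list medians, 84 moved by less than this, and that of the floral organ markers, resting on 1 bright probe set, went from -0.30 to 0.87 at a limit of 250. The shares on chromosomes 6 and 11 moved by less than their counting error with 1 probe set per gene.

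No paired analysis was possible because each group holds 1 array. No fold has a replicate check, and a difference between the SD and LD folds of a probe set holds the error of 4 arrays, the day length and the hour after light together. In 17 of 33 genes that could be compared, another bright probe set did not follow the one counted under SD. Signals under 100 have no order.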

Other observations

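Some genes among the 55 probe sets with a weaker LD difference in the same direction are given here as values, chosen after they were seen. A peroxidase gene, LOC4332175, read 95.4 in wild type and 932 in the mutant under SD and 1601 and 3183 under LD, so its difference was just under 2-fold under LD and its wild type level was far lower under SD. LOC4327106, annotated as an MFS18 protein, was higher in both bright probe sets under SD, from 102 to 662 and from 134 to 965, with LD log2 folds of 0.99 and 0.73. OsVIT1.2 (LOC4346978), of a family of vacuolar iron transporters, read 7882 in wild type and 1962 in the mutant under SD and 6244 and 3943 under LD, lower in hd1-3 in both.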
